A study of Mus musculus with 25 samples.

Results

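The genes examined here carry glucose into the sciatic nerve, break it down to pyruvate and lactate, and move lactate between cells. They are 10 genes, chosen by function and named by symbol, out of 56956 genes in the count table. They are the glucose carrier Slc2a1, the hexokinases Hk1 and Hk2, the regulatory enzyme gene Pfkfb3, the aldolases Aldoa and Aldoc, the lactate dehydrogenase subunits Ldha and Ldhb, and the monocarboxylate carriers Slc16a1 and Slc16a3. All 10 were among the 13993 genes that passed the filter on low counts. The one measured value used was the fold change in C3 mice against their controls, on which Aldoc was selected as one of the largest falls. For the 10 genes, the comparison of C3 with its control is therefore given below as a description, without a test.

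Poly(A) RNA of whole sciatic nerve was sequenced in 25 libraries. Each of 5 groups gave 5 libraries, from mice aged 3, 5, 7, 9 or 12 weeks. C22 mice carry 10 extra copies of human PMP22, the gene duplicated in Charcot-Marie-Tooth disease type 1A (CMT1A), on the FVB/NRJ strain, and C3 mice carry 5 on C57BL/6J. Their controls are wild-type FVB/NRJ mice (WT-C22) and wild-type C57BL/6J mice (WT-C3). The group C3-cJunKO carries the C3 transgene and lacks c-Jun in Schwann cells, where the gene was deleted by a Cre recombinase driven by a Schwann cell promoter. No group carried the Cre alone. No group was treated, and each library pooled the nerves of several males and females. There was no second pool of any group at any age, so the 5 ages stand in for replicates (n = 5). The SD and the standard error (SE) given below therefore mix changes with age and differences between pools. Strain and copy number change together between C3 and C22 and cannot be told apart.

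Glucose enters cells down its gradient through facilitative carriers, is trapped by hexokinase as glucose 6-phosphate, is split by aldolase into 3-carbon sugars and ends as pyruvate, which lactate dehydrogenase converts to lactate and back. Monocarboxylate carriers move lactate together with protons across the cell membrane. In peripheral nerve, glucose has to pass the endothelium and the perineurium, and Schwann cells are thought to pass lactate to the axons they wrap.

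The stretches just upstream of 4 of the genes are shown because the first 3 of them were lower in C22 at every age, whereas Ldha, which has the most matches, was not called in C22. Each run holds the 250 bases before a RefSeq transcript start, taken from a RefSeq table of build GRCm38.p6 and placed on GRCm39 by exact match, all on the plus strand. They lie at chr11:78213649-78213898 (Aldoc), chr3:104545730-104545979 (Slc16a1), chr4:118965692-118965941 (Slc2a1) and chr7:46494978-46495227 (Ldha). For Aldoc, Slc16a1, Slc2a1 and Ldha the GENCODE annotation also has transcripts that begin further upstream, inside these windows or before them. Capitals mark letters that match on either strand one of 3 motifs. The core motif of hypoxia-inducible factors was searched as ACGTG. A further spelling of that core was searched as GCGTG. The E-box was searched as CACGTG, and each E-box match also holds the first motif. The motif of AP-1, the family to which c-Jun belongs, was searched as TGANTCA.

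Aldoc: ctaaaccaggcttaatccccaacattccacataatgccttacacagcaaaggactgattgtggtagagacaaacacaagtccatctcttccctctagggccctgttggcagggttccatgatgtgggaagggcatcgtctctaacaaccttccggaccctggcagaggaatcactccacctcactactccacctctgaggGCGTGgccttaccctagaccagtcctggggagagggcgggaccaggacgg

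Slc16a1: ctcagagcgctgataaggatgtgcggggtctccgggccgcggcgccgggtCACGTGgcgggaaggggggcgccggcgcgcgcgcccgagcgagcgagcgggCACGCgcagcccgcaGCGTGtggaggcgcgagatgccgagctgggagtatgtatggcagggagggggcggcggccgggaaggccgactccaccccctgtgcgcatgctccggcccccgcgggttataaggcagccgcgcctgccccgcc

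Slc2a1: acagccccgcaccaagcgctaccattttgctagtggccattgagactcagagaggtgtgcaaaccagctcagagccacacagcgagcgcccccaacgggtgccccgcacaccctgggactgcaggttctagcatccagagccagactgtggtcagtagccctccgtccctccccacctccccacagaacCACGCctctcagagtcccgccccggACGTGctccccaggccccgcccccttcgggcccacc

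Ldha: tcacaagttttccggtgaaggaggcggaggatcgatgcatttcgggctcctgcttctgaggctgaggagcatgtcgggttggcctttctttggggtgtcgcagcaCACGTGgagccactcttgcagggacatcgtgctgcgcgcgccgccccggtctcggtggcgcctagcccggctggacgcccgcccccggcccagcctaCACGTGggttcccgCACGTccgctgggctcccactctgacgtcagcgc

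In the full windows, which also take in 50 bases after the start, ACGTG was found for 9 of the 10 genes, all except Ldhb, and in 19.6% of 32851 promoters of the same length. GCGTG was found for 7 of 10 (32.4% of promoters), CACGTG for 3 of 10, namely Pfkfb3, Ldha and Slc16a1 (7.15%), and TGANTCA for 1 of 10, Aldoa (7.81%). Where a gene had several RefSeq starts, the one nearest to the start of its GENCODE canonical transcript was taken. These are matches of letters and not binding sites. The promoters behind the shares were not matched to the 10 genes in base composition, expression or number of starts per gene. No enrichment is therefore read from these counts.

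The counts on genes added up to between 2140142 and 49072746 fragments in a library (median 24663235), and the library with the fewest was that of C3 at 9 weeks. Levels are CPM, that is counts scaled to the size of each library. Jun itself lay between 26.3 and 31.7 CPM in the C3-cJunKO libraries, where whole nerve also holds cells without Cre, and between 93.8 and 125 CPM in C3. Human PMP22 had a mean of 12622 CPM in C3, 11433 CPM in C3-cJunKO and 11843 CPM in C22, against 3.15 CPM in WT-C3 and 0.820 CPM in WT-C22. As a check of the tissue, 10 markers of myelinating Schwann cells added up to 8194 to 19259 CPM in each library, while the sum of 12 skeletal muscle markers ran from 11.6 to 12138 CPM. The libraries with the most muscle RNA were WT-C22 at 5 weeks (12138 CPM), C3 at 12 weeks (7401 CPM) and WT-C3 at 5 weeks (4625 CPM). In whole nerve, fewer cells of a type and less RNA per cell cannot be told apart.

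The library sizes behind the CPM were corrected by the TMM method, and levels of different genes are compared per kilobase of the canonical transcript. On that scale Aldoa stood first, with group means of 504 to 713 CPM per kb. Ldhb followed at 202 to 304 and Ldha at 147 to 223 CPM per kb, so that the ranges of both dehydrogenase subunits overlapped. Slc2a1 (36.6 to 76.1), Slc16a1 (20.0 to 51.8) and Hk1 (29.1 to 41.5 CPM per kb) overlapped as well. Pfkfb3 lay at 13.6 to 22.2 CPM per kb, and Hk2 (3.56 to 6.41), Aldoc (0.378 to 6.76) and Slc16a3 (0.461 to 1.35) were the 3 lowest.

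**Figure D1:**
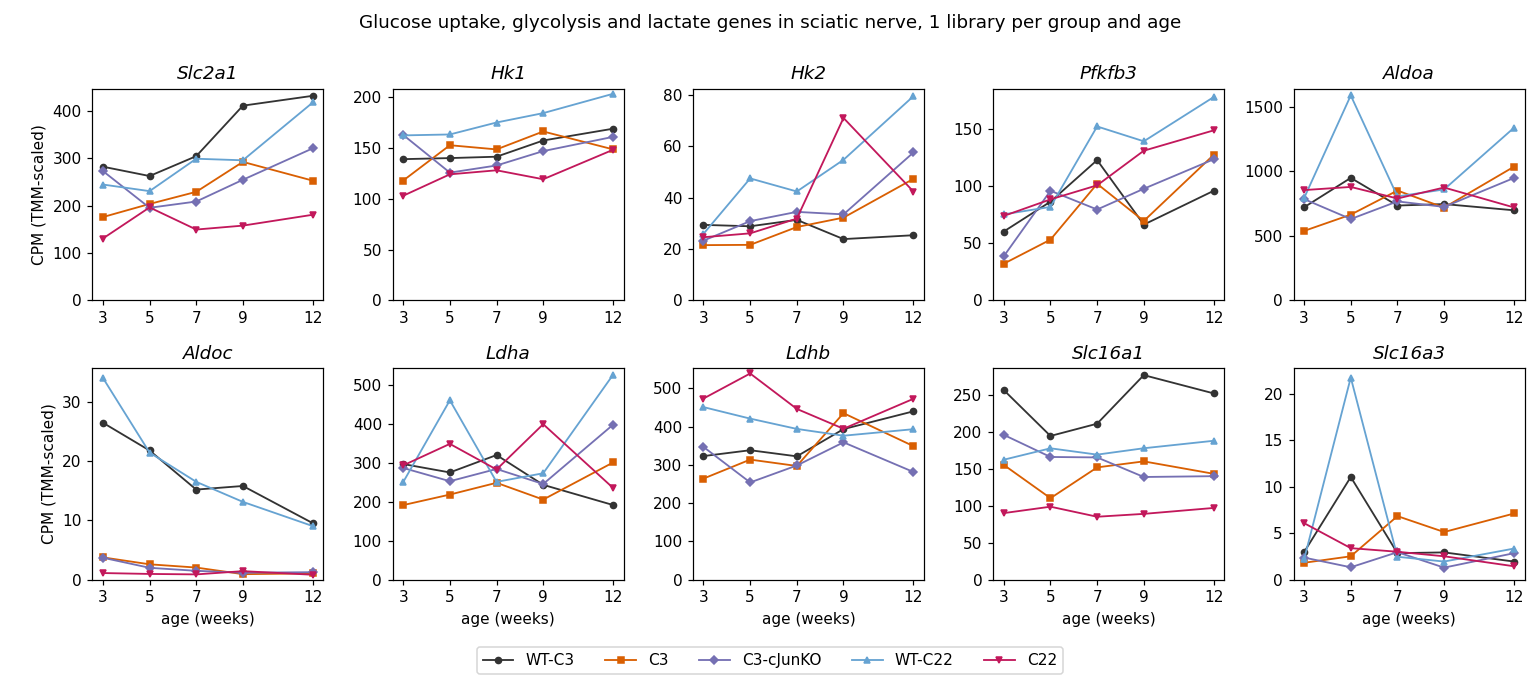
Level of each of the 10 genes (y axis, TMM-scaled CPM from 0) against age in weeks (x axis), with 1 point per library and 1 line per group. Aldoc in C3, C3-cJunKO and C22 lies below every wild-type point, Slc16a1 in C22 stays between 85.2 and 98.8 CPM, and Slc16a3 has single high points at 5 weeks in WT-C22 (21.8 CPM) and WT-C3 (11.1 CPM).

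In C22 nerve 4 of the 10 genes were lower than in WT-C22 and none was higher, at an edgeR adjusted p under 0.05 over all genes tested. Hk2, Pfkfb3, Aldoa, Ldha, Ldhb and Slc16a3 were not called. The 4 lower genes are Aldoc, Slc16a1, Slc2a1 and Hk1. For all 4, every C22 library lay below every WT-C22 library. The background in this comparison is high: 42.4% of all genes tested were called, 20.5% as lower and 21.9% as higher, and 14.5% were lower without overlap. With library totals as scaling the median of all genes moved to 0.17 and 76.0% of the called genes were higher, in place of 51.7%, while the 4 genes stayed lower past the threshold (-3.96 for Aldoc, -0.76 for Slc16a1, -0.71 for Slc2a1 and -0.35 for Hk1). The median log2 fold change of the 10 genes was -0.46, against 0.005 for all genes tested. In C3 against WT-C3, the comparison behind the choice of Aldoc, the median of the 10 was -0.15 against 0.00 for all genes. In C3, Aldoc and Slc16a1 did not overlap with WT-C3 (8.28% of all genes were lower without overlap). Nothing is read from these values, and neither a call nor a p is given for genes of the list in that comparison.

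Age was tested within each group over the 5 ages with a spline, and with a linear slope. The spline called Aldoc in WT-C22, C3 and C3-cJunKO and Hk2 in WT-C22, C22 and C3-cJunKO, and no other of the 10 genes. It called 2.86% of all genes in WT-C22, 2.27% in C3, 3.38% in C3-cJunKO, 0.752% in C22 and 0.693% in WT-C3. The linear slope called 7.77%, 5.96%, 5.97%, 0.784% and 2.62% of genes in that order.

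**Figure D2:**
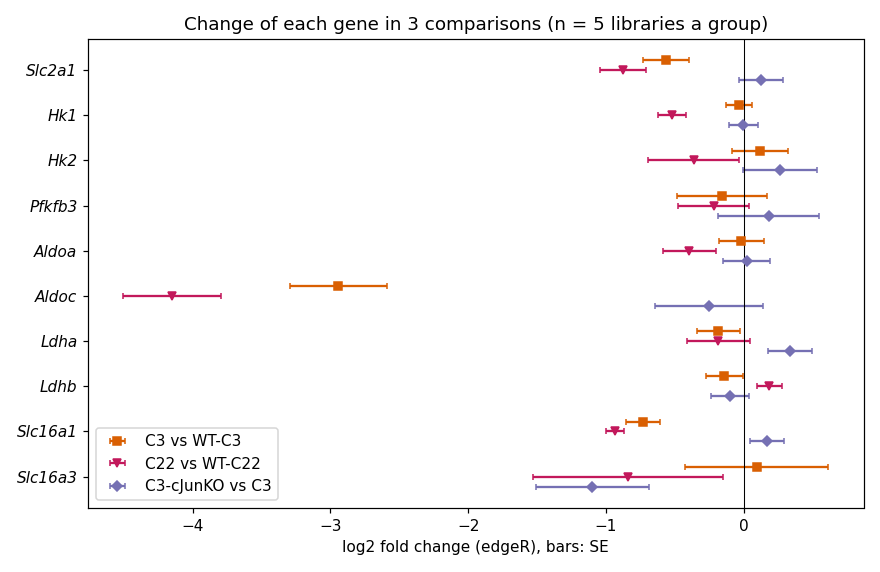
Log2 fold change (x axis) of each gene (y axis) in the C3 model (C3 minus WT-C3), the C22 model (C22 minus WT-C22) and after loss of c-Jun (C3-cJunKO minus C3), with bars of 1 SE (edgeR, n = 5 libraries a group). Aldoc lies at -2.94 in C3 and -4.15 in C22, Slc16a1 and Slc2a1 lie below 0 in both, and Hk1 lies at -0.03 in C3 and -0.52 in C22.

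Slc2a1 encodes GLUT1, the glucose carrier of barrier cells such as endothelium and perineurium. From 3 to 12 weeks it measured 244, 230.4, 299, 296 and 418 CPM in WT-C22 and 130.5, 196, 149, 158 and 181 CPM in C22. The C22 libraries were lower at 5 of 5 ages, and the log2 fold change was -0.88 (SE 0.16, adjusted p in edgeR = 0.00129). In WT-C3 it measured 282, 262, 304, 411 and 432 CPM and in C3 176, 203, 229, 292 and 252 CPM, a log2 fold change of -0.56 (SE 0.17). C3 was lower at each age, although the groups overlapped, since C3 at 9 weeks lay above WT-C3 at 3 and 5 weeks. With the library totals alone as scaling this value was -0.49, and it lay between -0.65 and -0.46 with single libraries left out. C3-cJunKO measured 273, 195, 208, 254 and 321 CPM, below WT-C3 at 5 of 5 ages, with a log2 fold change of -0.43 that did not pass (SE 0.17, adjusted p in edgeR = 0.0891). That comparison called 2 of the 10 genes (Aldoc and Slc16a1, both lower) and 21.5% of all genes (11.3% lower). It shares the WT-C3 libraries with the comparison of C3, so its call of Aldoc is not independent of the choice of Aldoc. With age, Slc2a1 rose in WT-C22 in the linear fit (0.09 per week, SE 0.03, adjusted p in edgeR = 0.0377; 0.0768 by spline), and that call was lost without the library of 3, of 5 or of 12 weeks. Exons of Slc2a1 overlap those of Gm12868 on the other strand, and whether the counting used strand is not given in the sources used here.

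Genes listed as markers of perineurium and endothelium moved in the same comparison. Of 6 perineurial markers 5 were tested, and all 5 were lower in C22. Their summed level ran from 786 to 995 CPM in C22 and from 1131 to 1671 CPM in WT-C22, and Krt23, the one not tested, lay at 0.16 CPM in WT-C22 and 0.21 CPM in C22. Of 10 endothelial markers 7 were lower in C22 and none was higher, with sums of 463 to 715 CPM against 683 to 926 CPM. Over all genes tested, 20.5% were lower in C22 and 11.4% in C3. In C3, 3 of 5 perineurial and 2 of 10 endothelial markers were lower, with perineurial sums of 1041 to 1445 CPM against 1046 to 1678 CPM in WT-C3. Most of the perineurial sum came from 1 marker, Itgb4, with means of 1069.5 CPM in WT-C22 and 666 CPM in C22. The sum therefore mostly follows Itgb4, and whether other cells of the nerve also express Itgb4 was not examined. Across the 25 libraries Slc2a1 and the perineurial sum had a Pearson r of 0.86, and Slc2a1 and the endothelial sum 0.68. These points share groups, strains and ages, and the part these cells have in the level of Slc2a1 was not tested.

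Hexokinase 1, the form found in most tissues, was lower in C22 by a small and even step. Hk1 measured 162, 163, 175, 184 and 203 CPM in WT-C22 and 103, 124, 128, 119 and 148 CPM in C22, lower at 5 of 5 ages. The log2 fold change was -0.52 (SE 0.10, adjusted p in edgeR = 0.00153). WT-C3, at 139, 140.0, 141, 157 and 169 CPM, and C3, at 118, 153, 148, 166 and 149 CPM, overlapped and differed by -0.03 (SE 0.09). C3-cJunKO lay at 163, 126, 133, 147 and 161 CPM, within the range of the other groups. The log2 fold change in C22 minus that in C3 was -0.49 (SE 0.14), which is given as a value because the C3 side was used for the choice of genes. Exons of Hk1 overlap those of Hk1os and Tacr2 on the other strand, so the limit given for Slc2a1 holds here too.

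Hk2, the insulin-responsive form of muscle and fat, was called with age and between the wild types. It was not called in C22 against WT-C22, nor in C3-cJunKO against C3 or WT-C3. It measured 29.4, 28.8, 31.3, 23.8 and 25.3 CPM in WT-C3, 21.5, 21.6, 28.5, 32.2 and 47.3 CPM in C3 and 23.2, 30.8, 34.4, 33.5 and 57.6 CPM in C3-cJunKO. In WT-C22 it measured 25.9, 47.5, 42.4, 54.7 and 79.5 CPM and in C22 24.6, 26.1, 31.8, 71.0 and 42.3 CPM. C22 was lower than WT-C22 at 4 of 5 ages, but the log2 fold change of -0.36 had an SE of 0.33 and did not pass (adjusted p in edgeR = 0.399). Between the wild types, Hk2 was higher in WT-C22 than in WT-C3 by 0.86 (SE 0.23, adjusted p in edgeR = 0.0203), at 4 of 5 ages. In that comparison 2 of the 10 genes were called, and 21.7% of all genes were (9.99% higher, 11.7% lower). Without WT-C3 at 9 or at 12 weeks the adjusted p was 0.0535 or 0.0508. Hk2 rose with age in WT-C22 (spline, adjusted p in edgeR = 0.0306), in C22 (0.0386) and in C3-cJunKO (0.0470), by 0.13 to 0.16 per week on the log2 scale in the linear fit. In C3 the linear slope was 0.13 per week (adjusted p in edgeR = 0.0371; 0.0639 by spline), and in WT-C3 it was -0.03 per week (0.782). The calls of a slope of Hk2 in C3, C3-cJunKO and WT-C22 were lost without the library of 3 or of 12 weeks, and in C3 also without that of 5 weeks. The linear slope in C22 was not called (adjusted p = 0.0940), and without the library of 12 weeks it was 0.26 per week, with an adjusted p of 0.00525.

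Pfkfb3 makes the enzyme that sets fructose 2,6-bisphosphate, the strongest activator of phosphofructokinase. It measured 60.3, 86.5, 123, 66.3 and 96.0 CPM in WT-C3, 32.1, 53.2, 102, 69.5 and 128 CPM in C3 and 38.7, 96.0, 79.6, 97.8 and 124 CPM in C3-cJunKO. WT-C22 gave 75.4, 81.9, 152, 139 and 178 CPM and C22 74.0, 88.5, 101, 131 and 149 CPM. The libraries of 3 weeks were the lowest of each group. Against their controls, C3 differed by -0.16 (SE 0.33) and C22 by -0.22 (SE 0.26, adjusted p in edgeR = 0.527). With age, Pfkfb3 rose in C3 by 0.20 per week in the linear fit (SE 0.05, adjusted p in edgeR = 0.0197; 0.0771 by spline). That call was lost without the library of 3 weeks (adjusted p = 0.352) or of 12 weeks (0.125).

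Pfkfb3 and Hk2 went along with fat. The sum of 8 adipocyte markers ran from 1481 to 4889 CPM in WT-C22, 1453 to 3818 in C22, 1219 to 2705 in WT-C3, 361 to 2850 in C3 and 658 to 4111 CPM in C3-cJunKO. It was lowest in the library of 3 weeks of every group. Of those 8 markers 4 were higher in WT-C22 than in WT-C3, beside 9.99% of all genes. None was called in C22 against WT-C22 or in C3 against WT-C3, where 42.4% and 23.9% of all genes were called. Ucp1, the marker of brown fat, was the one near 0, with means of 0.05 to 6.02 CPM. Over the 25 libraries the Pearson r with that sum was 0.94 for Pfkfb3 and 0.80 for Hk2, and the genes most like Pfkfb3 were Adipoq (r = 0.93), Aifm2 and Plin1 (0.93 each). The gene most like Hk2 was Slc2a4, the insulin-responsive glucose carrier (r = 0.91). The part of fat cells in these levels was not tested.

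At the aldolase step, Aldoc had the largest fold change of the 10 genes in C22. The same rank in C3 follows from the choice of Aldoc by its fall there. Aldoc, the aldolase known best from brain, measured 34.0, 21.4, 16.5, 13.1 and 9.04 CPM in WT-C22 and 1.12, 0.971, 0.895, 1.44 and 0.837 CPM in C22. All C22 libraries lay below all WT-C22 libraries. The log2 fold change was -4.15 (SE 0.36, adjusted p in edgeR = 4.58e-06), which is 17.7-fold lower. The C22 values rest on 20 to 40 counts per library, against 202 to 885 in WT-C22 and a limit of detection of 3 counts. In WT-C3 it measured 26.5, 21.8, 15.2, 15.8 and 9.53 CPM and in C3 3.77, 2.60, 2.05, 0.933 and 1.07 CPM, which again did not overlap. The log2 fold change there was -2.94 (SE 0.35), given as a description because it is the value the list was drawn up with. The C3 library of 9 weeks held 2 counts of Aldoc, under the limit of detection, and without it the value was -2.89. C3-cJunKO, at 3.71, 2.01, 1.5, 1.18 and 1.27 CPM, stood with C3, at -3.23 (SE 0.34) from the shared WT-C3 libraries. Aldoc did not overlap there, and 8.23% of all genes were lower without overlap. This too is a description, since the WT-C3 values took part in the choice of Aldoc. The log2 fold change in C22 minus that in C3 was -1.20 (SE 0.50), not tested for the reason given for Hk1.

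Aldoc also fell with age, in the linear fit, in both wild types and in both groups with the C3 transgene. In WT-C22 its slope was -0.21 per week on the log2 scale (SE 0.03, linear fit, adjusted p in edgeR = 0.000454), and the spline called it too (0.0107). The slope was -0.20 per week in C3 (spline 0.0485), -0.17 in C3-cJunKO (spline 0.0419) and -0.16 in WT-C3 (spline 0.0806, linear 0.0078). In C22 the slope was -0.01 per week (SE 0.04, linear adjusted p = 0.952), with values between 0.837 and 1.44 CPM at all ages. The slope in C22 minus that in WT-C22 was 0.20 per week (SE 0.05) and was not called over all genes (adjusted p = 0.0912; 0.464% of genes were called). The linear calls of Aldoc in WT-C3 and C3 were lost without the library of 3 or of 12 weeks, and that in C3-cJunKO without that of 3 weeks, while the one in WT-C22 held without any single library.

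Aldoa, the aldolase of muscle and most other tissues, was the far larger form. It measured 793, 1589.7, 806, 860.2 and 1339.6 CPM in WT-C22 and 855, 879.7, 790.0, 875 and 720.4 CPM in C22, a log2 fold change of -0.39 that did not pass (SE 0.19, adjusted p in edgeR = 0.126). Without WT-C22 at 5 weeks, the library with the most muscle RNA, it was -0.21. WT-C3 gave 722, 949.8, 735, 747 and 698 CPM, C3 538, 665, 852, 719 and 1037 CPM and C3-cJunKO 785, 631, 767, 725 and 949.6 CPM, with a log2 fold change of -0.02 (SE 0.16) in C3. Exons of Aldoa overlap those of Gm57854 and Tlcd3b, and 2 processed pseudogenes of it are annotated, so reads could be split.

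Per length, Aldoc made up 1.06% ± 0.730 (SD, n = 5) of both aldolases in WT-C22 and 0.0689% ± 0.0122 in C22. No C22 library reached the lowest WT-C22 one (0.365%). In an exact two-sided permutation test of the log2 ratio, p was 0.00794, the smallest that 5 against 5 can give, and 0.0635 after adjustment over the 8 ratio tests made. In WT-C3 the share was 1.23% ± 0.444 and in C3 0.169% ± 0.132, with C3-cJunKO at 0.139% ± 0.0755.

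**Figure D3:**
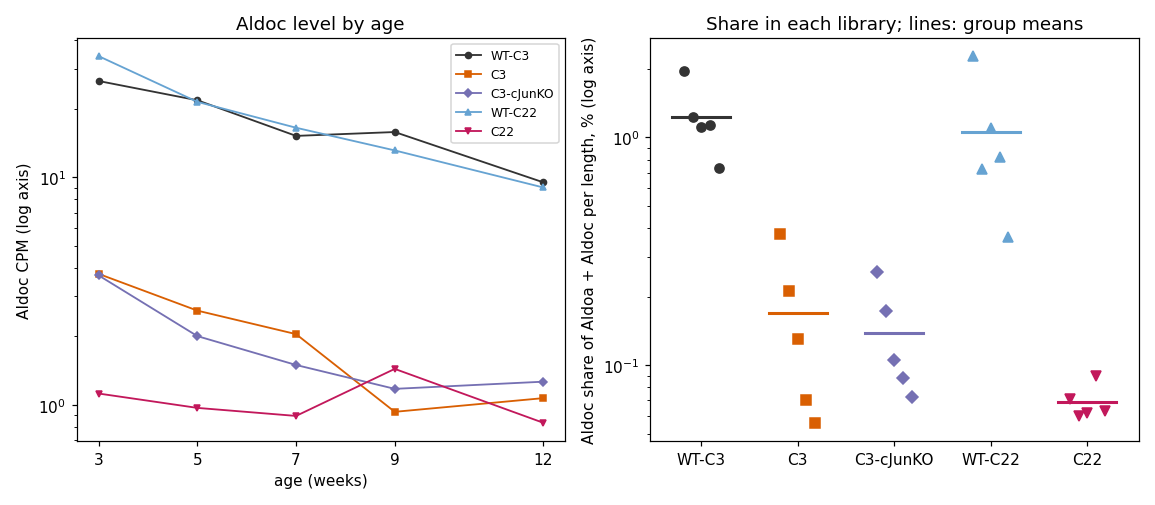
Left, Aldoc level (CPM, log axis) against age in weeks with 1 line per group. Right, the share of Aldoc in the sum of Aldoa and Aldoc per transcript length (%, log axis), with 1 point per library from 3 to 12 weeks and a line at each group mean: 1.23% in WT-C3, 0.169% in C3, 0.139% in C3-cJunKO, 1.06% in WT-C22 and 0.0689% in C22.

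The summed level of the markers of myelinating Schwann cells was lower in C22, as was Aldoc, while the single markers went both ways. The sum of those 10 markers ran from 8194 to 11184 CPM in C22 and from 11717 to 19259 CPM in WT-C22, which did not overlap. In C3 it ran from 12206 to 17203 CPM and overlapped with WT-C3, at 14653 to 18788 CPM. Over the 25 libraries its Pearson r was 0.66 with Aldoc and 0.68 with Slc16a1. As single genes 3 of the 10 markers were lower in C22, 2 were higher and 5 were not called, and in C3 it was 2 lower, 3 higher and 5 not called. Over all genes, 20.5% were lower and 21.9% higher in C22, and 11.4% and 12.5% in C3. Most of the sum came from Prx, Drp2 and Mal. Their means were 4656, 478 and 1243 CPM in C22 and 6869, 2657 and 2628 CPM in WT-C22. The means of Mag, Egr2, Ncmap, Cldn19, Pllp and Dhh were higher in C22. The genes most like Aldoc over the libraries were Pip4k2a, Pigq and Cdkl2 (r = 0.96 each). The sum of 10 markers of immature or repair Schwann cells ran the other way in C3, from 497 to 652 CPM against 299 to 381 CPM in WT-C3. In C22, at 284 to 402 CPM, it overlapped with WT-C22, at 271 to 367 CPM. Of the 8 tested, 7 were higher in C3 and 4 in C22, beside 12.5% and 21.9% of all genes. Cdh2 went down in both models, with means of 58.4 against 104 CPM in C3 and 34.7 against 67.8 CPM in C22. The means of Ncam1, Shh and Gfap were also lower in C22. The part of these Schwann cell states in the level of Aldoc was not tested.

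The dehydrogenase subunits were not called in C22 against WT-C22, nor in C3-cJunKO against C3 or WT-C3. Ldha, the subunit of muscle-type enzyme, measured 251, 462, 252, 274 and 528 CPM in WT-C22 and 294, 349.7, 284, 400.4 and 236 CPM in C22 (log2 fold change -0.18, SE 0.23, adjusted p in edgeR = 0.550). WT-C3 gave 298, 276, 321, 244 and 192 CPM, C3 192, 219, 249, 206 and 302 CPM and C3-cJunKO 288, 254, 285, 246 and 399 CPM, so that these groups overlapped. Ldha was higher in C3-cJunKO than in C3 at 5 of 5 ages, by 0.34 (SE 0.16), with an edgeR adjusted p of 0.656. Ldhb, the subunit of heart-type enzyme, measured 451, 421, 394, 376 and 394 CPM in WT-C22 and 474, 539, 447, 395 and 473 CPM in C22. C22 was above WT-C22 at 5 of 5 ages, by 0.19 (SE 0.09, adjusted p in edgeR = 0.119). It passed with library totals as scaling (0.36, adjusted p = 0.00256), where all genes were shifted as given above, and without C22 at 9 weeks (0.24, 0.0367). WT-C3 gave 323, 339, 323, 394 and 440.2 CPM, C3 264, 314, 297, 435 and 349 CPM and C3-cJunKO 347, 254, 299, 359 and 282 CPM. Ldhb made up 55.6% ± 9.11 of both subunits per length in WT-C22 and 60.9% ± 6.23 in C22 (SD, n = 5, exact permutation p = 0.286, adjusted 0.571). Its share was 58.6% ± 7.91 in WT-C3, 59.4% ± 5.63 in C3 and 52.2% ± 6.63 in C3-cJunKO. For Ldha 3 and for Ldhb 1 processed pseudogenes are annotated.

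Slc16a1 encodes MCT1, the monocarboxylate carrier of Schwann cells and perineurium and the main lactate carrier measured here. It measured 162, 178, 169, 178 and 188 CPM in WT-C22 and 90.1, 98.8, 85.2, 89.1 and 97.1 CPM in C22. Both groups were narrow, with coefficients of variation of 5.55% and 6.21%, and did not overlap. The log2 fold change was -0.93 (SE 0.065, adjusted p in edgeR = 9.02e-07), the same direction at 5 of 5 ages. WT-C3 gave 256, 194, 211, 277 and 252 CPM and C3 155, 110.3, 152, 160.1 and 143 CPM, which did not overlap either, at -0.73 (SE 0.12). C3-cJunKO gave 196, 166, 165, 139 and 140.1 CPM and was lower than WT-C3 at 5 of 5 ages, with a log2 fold change of -0.56 (SE 0.12, adjusted p in edgeR = 0.00624). The carrier also differed by strain: WT-C22 was lower than WT-C3, with a log2 fold change of -0.44 (SE 0.10, adjusted p in edgeR = 0.00721), with no overlap, where 9.33% of all genes were lower without overlap. The fitted change in C22 minus that in C3 was -0.20 (SE 0.14). Slc16a1 had no age effect that passed in any group, and linear slopes lay between -0.05 and 0.02 per week. Its Pearson r with the perineurial sum was 0.66, and the genes most like it were Rell1, Homer2 and Pygo1 (r = 0.95, 0.95 and 0.93).

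Slc16a3 encodes MCT4, the carrier by which strongly glycolytic cells such as white muscle fibers export lactate. It was one of the lowest genes of the list together with Aldoc, with 2.19, 21.8, 2.47, 1.95 and 3.35 CPM in WT-C22 and 6.09, 3.40, 3.01, 2.52 and 1.45 CPM in C22. Its log2 fold change in C22 was -0.84 (SE 0.69, adjusted p in edgeR = 0.348) and turned to 0.39 without the WT-C22 library of 5 weeks. WT-C3 gave 2.97, 11.1, 2.86, 2.94 and 1.95 CPM, C3 1.82, 2.52, 6.85, 5.13 and 7.13 CPM and C3-cJunKO 2.38, 1.34, 2.96, 1.30 and 2.86 CPM. In each of the 5 groups the highest value was that of the library with the most muscle RNA. The Pearson r with the muscle sum was 0.80, and the gene most like Slc16a3 was Pygm, the muscle glycogen phosphorylase (r = 0.92). The muscle sum ran from 29.7 to 12138 CPM in WT-C22, 72.9 to 3020 in C22, 27.0 to 4625 in WT-C3, 203 to 7401 in C3 and 11.6 to 1239 CPM in C3-cJunKO. None of the 11 muscle markers tested was called in any of the 5 comparisons. Myh2, the marker not tested, had group means of 0.43 to 3.08 CPM. Muscle RNA and the level of Slc16a3 were not separated by any test. Exons of Slc16a3 overlap those of Ccdc57 and Csnk1d on the other strand.

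**Figure D4:**
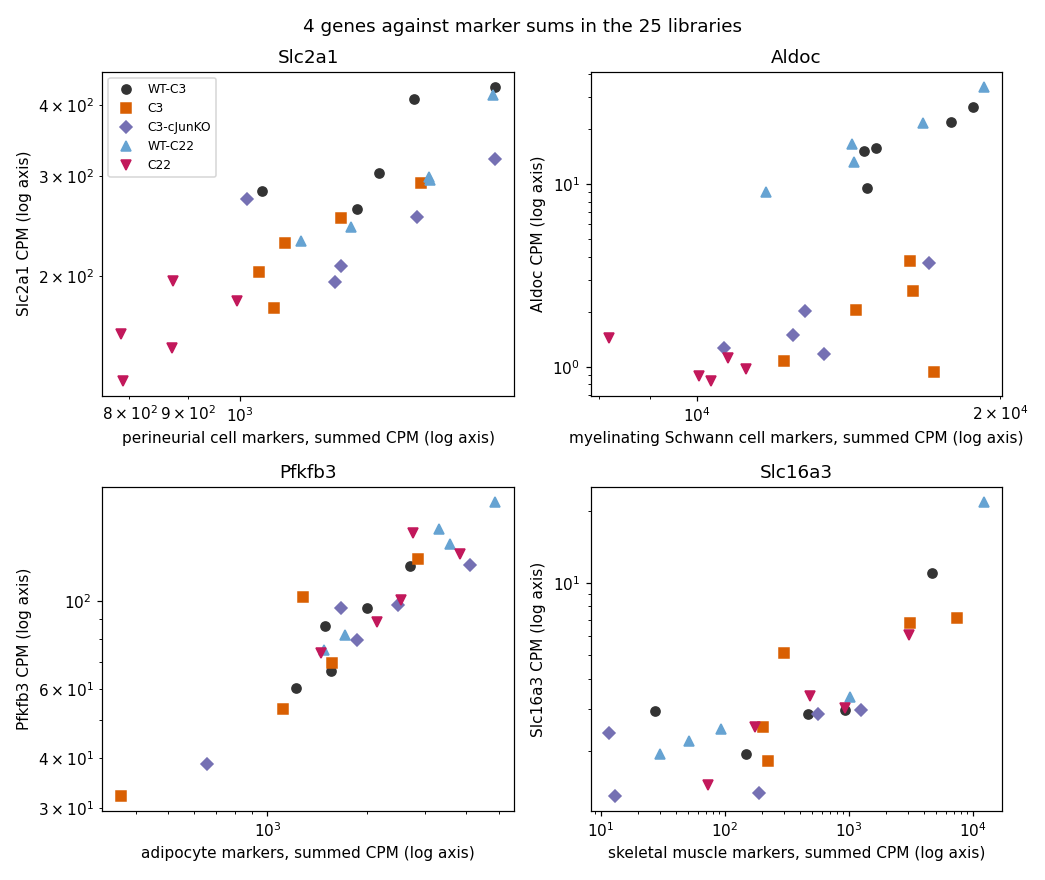
Levels of Slc2a1, Aldoc, Pfkfb3 and Slc16a3 (y axes, CPM, log axes) against the summed CPM (x axes, log axes) of perineurial, myelinating Schwann cell, adipocyte and skeletal muscle markers, with 1 point for each of the 25 libraries and 1 symbol per group. The Pearson r of the log2 values is 0.86, 0.66, 0.94 and 0.80 in that order, and the points share groups, strains and ages.

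Loss of c-Jun from Schwann cells of C3 mice was compared to ask whether it changes these genes. None of the 10 passed in C3-cJunKO against C3 with edgeR, and none with DESeq2 or with age as a block, the fit that pairs libraries of the same age. The background was low, at 0.55% of all genes, and the fit with the block called 273 of 13993 genes in place of 77. At an unadjusted p under 0.05 there was 1 of the 10, Slc16a3, with a log2 fold change of -1.10 (SE 0.41, adjusted p in edgeR = 0.483), which was lower at 4 of 5 ages. The other 9 lay between -0.25 (Aldoc) and 0.34 (Ldha), and the groups overlapped for all 10, where 2.25% of all genes tested did not overlap. The ratio of Slc16a3 to Slc16a1 differed by -1.17 on the log2 scale (exact permutation p = 0.0397, 0.159 after adjustment over 8 tests). Muscle RNA was lower in C3-cJunKO in the median library, at 187 CPM against 296 CPM in C3.

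The same pathways beyond these genes were followed in 6 lists, which hold 93 genes. Their counts stand against a background, over all genes tested, of 12.5% higher and 11.4% lower in C3 (23.9% called) and of 21.9% higher and 20.5% lower in C22 (42.4% called). Among 19 other glycolytic enzymes tested, 3 were higher in C3, namely Pfkfb4 (log2 fold change 1.03, SE 0.11), Eno2 (0.57, SE 0.10) and Pfkp (0.46, SE 0.08), and none was lower. In C22, 3 were higher and 1 lower. They include Pfkp, the platelet-type phosphofructokinase (0.67, SE 0.17, adjusted p in edgeR = 0.00795), Pfkfb2 (0.46, SE 0.15, 0.0263) and Pkm, pyruvate kinase (-0.48, SE 0.17, 0.0412). Pkm differed by -0.69 at 5 and -1.06 at 12 weeks, but by -0.08, -0.15 and -0.19 at 3, 7 and 9 weeks. WT-C22 held the most muscle RNA of its group at 5 weeks (12138 CPM), followed by 12 weeks (1024 CPM). At 12 weeks it also had the highest adipocyte sum of its group (4889 CPM). C22 held 3020 CPM of muscle RNA at 3 weeks. The part of muscle and fat was not tested. The medians over the enzymes were 0.09 in C3 and -0.14 in C22, beside 0.00 and 0.005 for all genes.

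Of 11 other glucose and lactate carriers tested, 1 was higher and 1 lower in C3. Slc2a3, the carrier GLUT3 of neurons and leukocytes, was higher (1.07, SE 0.24), and Bsg, basigin, the partner that brings MCT1 to the membrane, was lower (-0.33, SE 0.09). In C22, Slc2a3 was higher as well (0.83, SE 0.31, adjusted p in edgeR = 0.0474), and 3 carriers were lower, led by Slc2a6 (-2.30, SE 0.30, 0.000119) and the inositol carrier Slc2a13 (-0.83, SE 0.16, 0.00175). Of 14 genes of pyruvate entry into mitochondria, 4 were lower and 1 higher in C3, and 3 lower and 1 higher in C22. Pdk1, a kinase that switches pyruvate dehydrogenase off, was lower in both (-0.61, SE 0.16 in C3; -0.72, SE 0.17 in C22). Pdp2, a phosphatase that switches it on, was lower in both too (-0.52, SE 0.11 in C3; -0.66, SE 0.12 in C22), as were Mpc2 in C3 (-0.61, SE 0.17) and Pdk4 in C22 (-0.85, SE 0.24).

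Of 16 glycogen genes, 2 were lower in C3 and 5 in C22, with none higher, beside the 11.4% and 20.5% of all genes that were lower. They were led by Pygl, liver-type glycogen phosphorylase (-0.82, SE 0.21), and Gbe1, the branching enzyme (-0.62, SE 0.18), in C3. In C22 they were led by Pgm1, which joins glycogen to glycolysis (-0.65, SE 0.22, adjusted p in edgeR = 0.0304), Phkb (-0.57, SE 0.10, 0.00107) and Gyg1 (-0.54, SE 0.10, 0.00119). Pgm1 differed by -1.28 at 5 and -1.17 at 12 weeks, but by -0.05, -0.41 and -0.05 at 3, 7 and 9 weeks. WT-C22 held the most muscle RNA of its group at 5 weeks, followed at a much lower level by 12 weeks, where its adipocyte sum was highest. The part of muscle and fat was not tested. The median over the list was -0.53 in C22 and -0.12 in C3. Pgm1 was also the gene most like Aldoa over the 25 libraries (r = 0.91).

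Of 8 genes of the pentose phosphate pathway, G6pdx, its first enzyme, was lower in C3 (-0.45, SE 0.10) and in C22 (-0.75, SE 0.23, adjusted p in edgeR = 0.0205), and Pgls was higher in C22 (0.48, SE 0.11, 0.00409). The one gene of these 6 lists called in C3-cJunKO against C3 was Pgd, of the same pathway (0.50, SE 0.09, adjusted p in edgeR = 0.0352), which was higher at 5 of 5 ages. Of 18 regulators of glycolysis, 3 were higher and 1 lower in C3, and 2 were higher and 4 lower in C22. Ppargc1a, the coactivator of mitochondrial genes, was higher in C3 (0.45, SE 0.11) and C22 (1.25, SE 0.13, adjusted p in edgeR = 2.32e-05), and Myc was higher in C3 (0.61, SE 0.19). Egln1, a prolyl hydroxylase that marks hypoxia-inducible factor for breakdown, was lower in C3 (-0.33, SE 0.09) and C22 (-0.59, SE 0.07, adjusted p in edgeR = 6.14e-05), and Egln3 in C22 (-0.64, SE 0.24, 0.0463).

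Among the 10 genes themselves, the pairs that varied most alike over the 25 libraries were Aldoa with Ldha (Pearson r = 0.82), Slc2a1 with Slc16a1 (0.81), Slc2a1 with Hk1 (0.80), Hk2 with Pfkfb3 (0.76) and Aldoc with Slc16a1 (0.73). The genes of the whole table most like Ldha were Pdha1, Fh1 and Dlat (r = 0.92, 0.90 and 0.89), which act in mitochondria. Those most like Slc2a1 were Vtn, Rhpn2 and Fzd2 (0.96, 0.95 and 0.94), and those most like Hk1 were Ephx1, Slc7a5 and Niban2 (0.91, 0.87 and 0.87). These values describe the libraries, which share groups and ages.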

How the data were processed

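RNA of the sciatic nerve of 5 groups of mice was examined in 25 libraries, grouped by their labels, with 1 library per group and age. Per the paper, the authors clipped adapters (cutadapt 2.10), aligned the reads with STAR 2.7.5a to the mouse genome GRCm39, extended by the human PMP22 locus, collapsed duplicates with UMI-tools 1.1.1, counted with HTSeq 0.12.4 on Ensembl genes, and deposited raw counts without normalization. All columns of the table were used. The 10 genes, the lists of pathway and marker genes and the comparisons were chosen with earlier results of these data known. The lists were written from general knowledge, and 1 marker of myelinating Schwann cells is not reported here and was left out of their sum.

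Counts were tested in R 4.3.3 with edgeR 4.0.16 (quasi-likelihood, TMM factors among the libraries compared, group as the only term) on genes whose log2 CPM exceeded 1 in 7 or more of the libraries. The Benjamini-Hochberg adjustment ran over all genes, with a threshold of 0.05. SE is the log2 fold change divided by the root of F. Age used a natural spline with 3 degrees of freedom, or a line, in 1 fit of all libraries on the 15298 genes kept by filterByExpr, with 5 and 15 residual degrees of freedom. Ratios of counts, with 0.5 added, were compared by exact two-sided permutation. Levels are CPM with TMM factors over all libraries, and correlations are of log2 CPM. The limit of detection was taken as 3 counts, which covers counting error only. The steps were tested on simulated counts.

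The genes named are the 10, the 3 largest changes among the called genes of each pathway list in C3, C22 and C3-cJunKO against C3, and the 3 genes with the highest Pearson r to each of the 10. Pairing of libraries of the same age was held warranted only where, with group means removed, their r across genes passed a small positive limit at each age. That held for C3-cJunKO against C3 (r across genes of 0.438, 0.123, 0.347, 0.264 and 0.615 from youngest to oldest), where age as a block called 273 genes in place of 77. At 5 and 7 weeks, however, the C3-cJunKO library was more like a C3 library of another age. The values given for that comparison come from the unpaired fit unless the block is named. Alternatives were median-ratio size factors, library totals, DESeq2 1.42.0, no filter, age as a block, 1 fit to all libraries, other age fits and leaving out each library. The test of a difference between slopes was added after the age effects had been seen.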

Additional observations from a re-analysis of the deposited data

Results flagged for a closer look

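In groups of 5 libraries, a library was set apart where its gap to the nearest other library exceeded 0.71 of the range of its group on the log2 scale, which chance gives in about 1 of 20 groups. The 70 groups examined were 50 for the levels of the 10 genes and 20 for the 4 ratios. Of them 5 held such a library, in each case that of 5 weeks in WT-C22 or in WT-C3. The level of Slc16a3 also enters its ratio to Slc16a1, so these 5 are not independent. The level of Slc16a3 was 21.8 CPM in WT-C22 at 5 weeks, where the other 4 libraries lay between 1.95 and 3.35 CPM, and 11.1 CPM in WT-C3 at 5 weeks, where the others lay between 1.95 and 2.97 CPM. The log2 ratio of Slc16a3 to Slc16a1 was -3.03 in that WT-C22 library (others -6.49 to -5.80) and -4.13 in that WT-C3 library (others -6.99 to -6.18). The level of Aldoa was 949.8 CPM in the same WT-C3 library, where the others lay between 698 and 747 CPM. The summed muscle markers in these libraries were 12138 CPM and 4625 CPM, the highest of their groups, and the part of muscle RNA was not tested.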

How the results depend on the processing

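In C22 against WT-C22, Aldoc, Slc16a1, Slc2a1 and Hk1 kept their direction and call with median-ratio size factors, library totals, DESeq2, no filter, age as a block, 1 fit to all libraries and each library left out (members called 4 to 5). Library totals moved the share of higher calls from 52.1% to 71.4% in C3 against WT-C3 and from 47.7% to 66.6% in C3-cJunKO against WT-C3. In C3-cJunKO against C3, 77 genes were called over all genes (31 higher, 46 lower), against 250 with DESeq2 (118, 132), 134 without the filter (67, 67), 139 with all 25 libraries in 1 fit (51, 88), 273 with the replicate block of age (164, 109; 60.1% higher in place of 40.3%) and 43 to 98 with a library left out. None of these called a gene of the list. In WT-C22 against WT-C3, 4 genes of the list were called with DESeq2 (3 higher, 1 lower), 5 with the replicate block (4, 1) and 1 to 3 with a library left out. The block was not warranted there by the check of pairs. It also called Slc2a1 in C3-cJunKO against WT-C3 (adjusted p = 0.0123), as did DESeq2 (0.0451) and the fit without C3-cJunKO at 12 weeks (0.0380), and it changed no other call of a fold change of the list. In these fits the cause of a changed call was not tested.

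Values near 0 turned sign. Hk1 in C3-cJunKO against C3 was 0.000751 with DESeq2 and 0.0213 without the filter. Against WT-C3, Hk1 was 0.0418 with library totals, Pfkfb3 -0.0325 with the replicate block, and Aldoa -0.00323 with median-ratio size factors, -0.00323 with DESeq2 and -0.000754 with the replicate block. With a library left out, log2 fold changes in C3-cJunKO against C3 ran from -0.0802 to 0.163 (Aldoa), -0.591 to 0.0595 (Aldoc), -0.0699 to 0.0447 (Hk1), -0.171 to 0.00955 (Ldhb) and -0.0230 to 0.459 (Pfkfb3). Against WT-C3 they ran from -0.0857 to 0.0885 (Aldoa), -0.0774 to 0.0105 (Hk1) and -0.145 to 0.202 (Pfkfb3). In C22 they ran from -0.284 to 0.0133 (Ldha) and -1.19 to 0.390 (Slc16a3), and between the wild types from -0.260 to 0.269 (Aldoc) and -0.793 to 1.15 (Slc16a3). The log2 ratio of Aldoc to Aldoa in C3-cJunKO against C3 ran from -0.475 to 0.209, and that of Hk2 to Hk1 in C22 from -0.117 to 0.281.

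Age calls depended most on the fit. With a linear slope, 1 gene of the list was called in WT-C3, 3 in C3 and 0 in C22, and over all genes 401 in WT-C3, 912 in C3, 913 in C3-cJunKO and 1188 in WT-C22. With 2 degrees of freedom it was 1 in WT-C3, 1 in C3-cJunKO, 1 in WT-C22 and 0 in C22, and over all genes 244 in WT-C3, 819 in WT-C22 and 66 in C22. With the log2 CPM filter it was 1 in C3-cJunKO and 0 in C22, and 53 over all genes in C22. With a library left out, the linear fit called 0 to 1 gene of the list in C22, 0 to 3 in C3, 0 to 3 in C3-cJunKO, 1 to 4 in WT-C22 and 0 to 1 in WT-C3. Over all genes it called 1 to 469, 75 to 868, 106 to 886, 121 to 1190 and 0 to 397 in that order. Slopes per week then ran from -0.0434 to 0.0596 (Aldoc, C22), -0.0137 to 0.0623 (Pfkfb3, WT-C3), -0.00649 to 0.0535 (Slc2a1, C22) and -0.00748 to 0.107 (Slc2a1, C3-cJunKO). Aldoc in C3 at 9 weeks, at 2 counts, is limited by depth.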

Other observations

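The wild types were also compared in the other lists of pathway genes. In WT-C22 against WT-C3, where 9.99% of all genes were higher and 11.7% lower, 5 of 19 other glycolytic enzymes were higher and 1 lower, and 4 of 11 other glucose and lactate carriers were higher and none lower. Of 16 glycogen genes 3 were higher, of 8 genes of the pentose phosphate pathway 2 and of 18 regulators of glycolysis 4. Of 14 genes of pyruvate entry 1 was higher, which is not above the share of all genes. None was lower in these 4 lists, and counts in lists this short are small. The list medians lay between 0.08 and 0.46 on the log2 scale, against 0.00 for all genes tested. In the same comparison 4 of 8 adipocyte markers were higher and the 11 muscle markers tested had a median of 0.95 with none called. The part of fat and muscle in these counts was not tested.

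The share of Hk2 in both hexokinases per length was 9.34% ± 1.57 in WT-C3, 10.1% ± 2.86 in C3, 11.8% ± 3.27 in C3-cJunKO, 13.1% ± 3.52 in WT-C22 and 14.4% ± 5.83 in C22 (SD, n = 5). In C22 against WT-C22 the log2 ratio differed by 0.14 (exact permutation p = 0.706, 0.807 after adjustment over 8 tests).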
